A study of Tamarix ramosissima and Tamarix chinensis with 11 samples.

Results

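The genes described here are 308 of the 117867 assembled genes of a *Tamarix* (tamarisk) leaf reference. They were chosen by measured values as genes whose counts dropped under water deficit in *T. chinensis* while the group mean in *T. ramosissima* stayed close to that of its control. Levels are given in CPM, a gene's count divided by the total of its library and scaled to a common size. The log2 ratio of a species was taken between the mean CPM + 1 of its water deficit and its control plants. A member had a log2 ratio of -1.5 or lower in *T. chinensis*, every water deficit library below every control library of that species, a mean CPM of 5 or more in the *T. chinensis* control, and a log2 ratio between -0.4 and 0.4 in *T. ramosissima*. Of the 17482 genes with a mean CPM of 5 or more in the *T. chinensis* control, the members made up 1.76%. Because both water deficit contrasts chose the members, their ratios and calls in those contrasts are a description and support nothing.

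The study compared leaf RNA of *T. chinensis* from New Mexico and *T. ramosissima* from Montana, invasive tamarisk species of the southern and northern United States, under well-watered control (C) and water deficit (WD) conditions. Plants of both species were raised from seed and were 14 weeks old when they entered a growth chamber at 25 °C. The controls stood in shallow water and were irrigated from below. Water deficit plants received no water until their leaves wilted, after 10 days for *T. chinensis* and after 17 days for *T. ramosissima*, and leaf tissue was then collected. Each of the 11 libraries came from 1 plant, with 2 libraries in the *T. chinensis* control and 3 in each of the other groups. Species, seed origin, days without water and day of harvest changed together, so their parts in any difference between the species cannot be told apart. The study describes collecting the controls at the wilting point of their species, so the day of harvest also differed between the controls. The water deficit groups stand for young plants at the point of wilting only, without a recovery or an earlier stage of drying.

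In leaves that lose water, the hormone abscisic acid closes the stomata, carbon dioxide uptake falls, and transcripts for photosynthesis and growth are commonly lowered while transcripts for protective proteins and osmolytes are raised. How early and how far such transcripts fall differs between species and between plants that dry at different rates. The members carry assembly identifiers only: each is a group of contigs built by Trinity from the reads of both species, and the files do not pair the identifiers with gene names. No function can therefore be given to a member, and the leaf label could not be checked against marker genes. In bulk leaf RNA, fewer cells of a type and less RNA per cell cannot be told apart.

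Library totals ran from 10245008 to 15655257 estimated fragments, so that 5 CPM corresponded to about 51.2 fragments in the smallest library. The assembly served both species, and 1653 genes met the limits set for *T. chinensis* alone. Of these, 1275 had a *T. ramosissima* log2 ratio below -0.4, 70 had one above 0.4, and the remaining 308 (18.6%) are the members. The median *T. ramosissima* log2 ratio of the 1653 genes was -0.88, so the members were taken from the upper side of a distribution that was shifted downwards. The same rule with the species exchanged gave 38 genes, and with the drop asked of both species 409. With the sign exchanged it gave 147, where the minimum of 5 CPM was set on the *T. chinensis* water deficit mean in place of the control mean. The counts of 308 and 38 cannot be read as a difference between the species, because the limits were not equally strict. *T. chinensis* had fewer control libraries than *T. ramosissima*, so complete separation from the controls was easier to meet there. The effect of this on the counts was not tested.

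**Figure D1:**
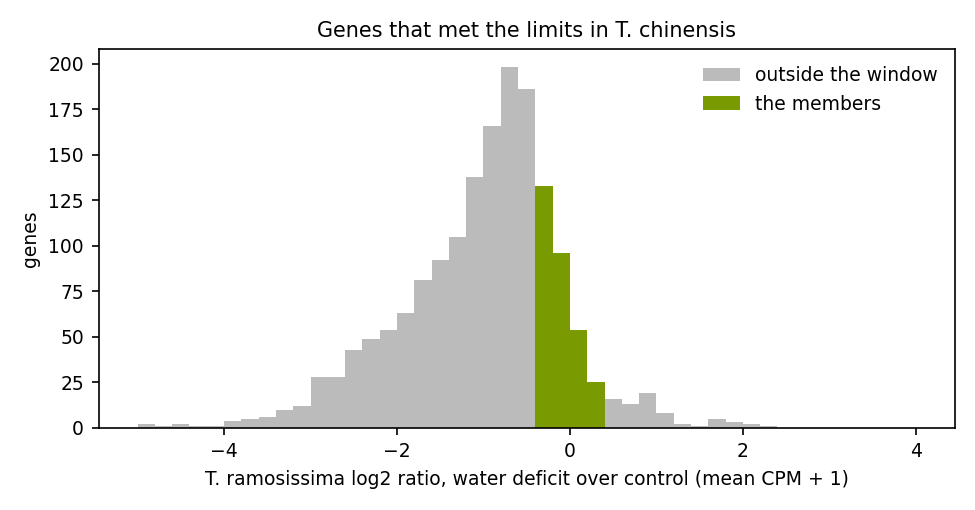
The horizontal axis is the *T. ramosissima* log2 ratio of water deficit over control (mean CPM + 1) and the vertical axis the number of genes, for the 1653 genes that met the limits in *T. chinensis*. The 308 members (green) lie between -0.4 and 0.4, to the right of the peak of the distribution, and 1275 of the other genes (grey) lie to their left.

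In *T. chinensis* the members' log2 ratios ran from -6.17 to -1.502 with a median of -1.97. The median over members of the mean level was 37.1 CPM in the control and 8.23 CPM under water deficit. In *T. ramosissima* the ratios ran from -0.39 to 0.40 with a median of -0.16, and the median levels were 31.6 CPM in the control and 28.8 CPM under water deficit. The limits lay within a continuous range of values. TRINITY_DN39660_c0_g1 was just inside the *T. chinensis* limit at -1.502, and TRINITY_DN31308_c2_g1 was just outside it at -1.4999. At the lower *T. ramosissima* limit, TRINITY_DN32615_c0_g1 was inside at -0.39 and TRINITY_DN30242_c0_g1 outside at -0.40. At the upper limit, TRINITY_DN28379_c1_g1 was inside at 0.40 and TRINITY_DN34212_c1_g1 outside at 0.41. At the level limit, TRINITY_DN39226_c2_g1 was inside at 5.05 CPM and TRINITY_DN37884_c3_g2 outside at 4.98 CPM in the *T. chinensis* control.

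Summed over the 308 genes, the members held 4.36% and 5.19% of all counts in the 2 *T. chinensis* control libraries. They held 0.673%, 0.888% and 0.605% in *T. chinensis* water deficit plants 1, 2 and 3. In the *T. ramosissima* controls the sum was 5.14%, 4.43% and 4.31%, and in *T. ramosissima* water deficit plants 1, 2 and 3 it was 1.88%, 5.90% and 4.62%. The water deficit plants of *T. ramosissima* were thus not alike: plant 1 lay below all 3 controls of its species, plant 2 above all of them, and plant 3 among them. The sum was dominated by few genes, since the 9 members with 1000 CPM or more in the *T. chinensis* control held between 26.1% and 59.3% of it, depending on the library.

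The most abundant member by fragments, TRINITY_DN32885_c2_g2, had 6486 and 8038 CPM in the *T. chinensis* controls and 198, 857 and 549 CPM in the water deficit plants. In *T. ramosissima* it had 11005, 7330 and 7205 CPM in the controls and 1198, 12595 and 8221 CPM under water deficit. Water deficit plant 1 of *T. ramosissima* lay below every control of its species by a wide margin, and plants 2 and 3 did not. TRINITY_DN35087_c1_g1 had 5894 and 8030 CPM in the *T. chinensis* controls, 1119, 1264 and 484 CPM under water deficit, 7638, 5958 and 5321 CPM in the *T. ramosissima* controls, and 2957, 8716 and 6520 CPM in the *T. ramosissima* water deficit plants. Here too, plant 1 alone was below the controls of *T. ramosissima*. TRINITY_DN25899_c0_g1 had 1681 and 1963 CPM in the *T. chinensis* controls and 72.9, 102 and 87.7 CPM under water deficit. In *T. ramosissima* it had 1822, 1758 and 1528 CPM in the controls and 746, 2058 and 1673 CPM under water deficit. TRINITY_DN37845_c1_g1, TRINITY_DN32143_c1_g1, TRINITY_DN31832_c3_g1 and TRINITY_DN26198_c0_g1, the other members named for their abundance along with TRINITY_DN39752_c2_g2 described next, had mean CPM of 1629, 1562, 1384 and 1321 in the *T. chinensis* control and 105, 106, 170 and 96.2 under water deficit. Their values in *T. ramosissima* water deficit plant 1 were 554, 657, 798 and 330 CPM, each below the lowest *T. ramosissima* control.

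The largest drop in *T. chinensis* was that of TRINITY_DN35353_c0_g1, from 105 and 223 CPM in the controls to 2.05, 1.53 and 0.271 CPM. The mean was 164 ± 83.8 CPM (SD, n = 2) in the control and 1.28 ± 0.914 CPM (SD, n = 3) under water deficit, a log2 ratio of -6.17. In *T. ramosissima* the same gene had 145, 106 and 140 CPM in the controls and 6.17, 303 and 87.5 CPM under water deficit, a log2 ratio of 0.02. A ratio of means close to 0 was here the average of 1 plant far below the controls, 1 plant above them and 1 somewhat below. TRINITY_DN39752_c2_g2 dropped in *T. chinensis* from 1174 and 1636 CPM to 27.4, 42.1 and 37.6 CPM. It had 1681, 1790 and 1582 CPM in the *T. ramosissima* controls and 398, 2247 and 1329 CPM in the water deficit plants. TRINITY_DN36080_c2_g2, with 10.4 and 25.9 CPM in the *T. chinensis* controls and 0.195, 0.382 and 0.0904 CPM under water deficit, had 6.78, 10.9 and 7.72 CPM in the *T. ramosissima* controls and 0.0801, 11.6 and 10.99 CPM under water deficit. Its value in *T. ramosissima* plant 1 was as low as those of *T. chinensis*.

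Not all of the largest drops had this form. TRINITY_DN33211_c1_g1 had 309 and 205 CPM in the *T. chinensis* controls and 18.8, 13.0 and 7.50 CPM under water deficit, against 131, 76.6 and 39.8 CPM in the *T. ramosissima* controls and 48.9, 74.2 and 94.8 CPM under water deficit, where every water deficit plant was within the range of the controls. TRINITY_DN37444_c0_g1 and TRINITY_DN38650_c0_g2 had *T. chinensis* log2 ratios of -4.31 and -4.10, and again only *T. ramosissima* water deficit plant 1, at 132 and 78.4 CPM, was below the controls of that species. TRINITY_DN40154_c0_g1 rested on 1 library, with 42.9 and 0.0639 CPM in the *T. chinensis* controls and 0 in every water deficit plant. In *T. ramosissima* it was at 0 in 5 of the 6 libraries and at 0.170 CPM in the sixth, so its ratio near 0 there is that of a gene scarcely detected. In all, the 2 *T. chinensis* control libraries differed by more than 2 times for 22 members.

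**Figure D2:**
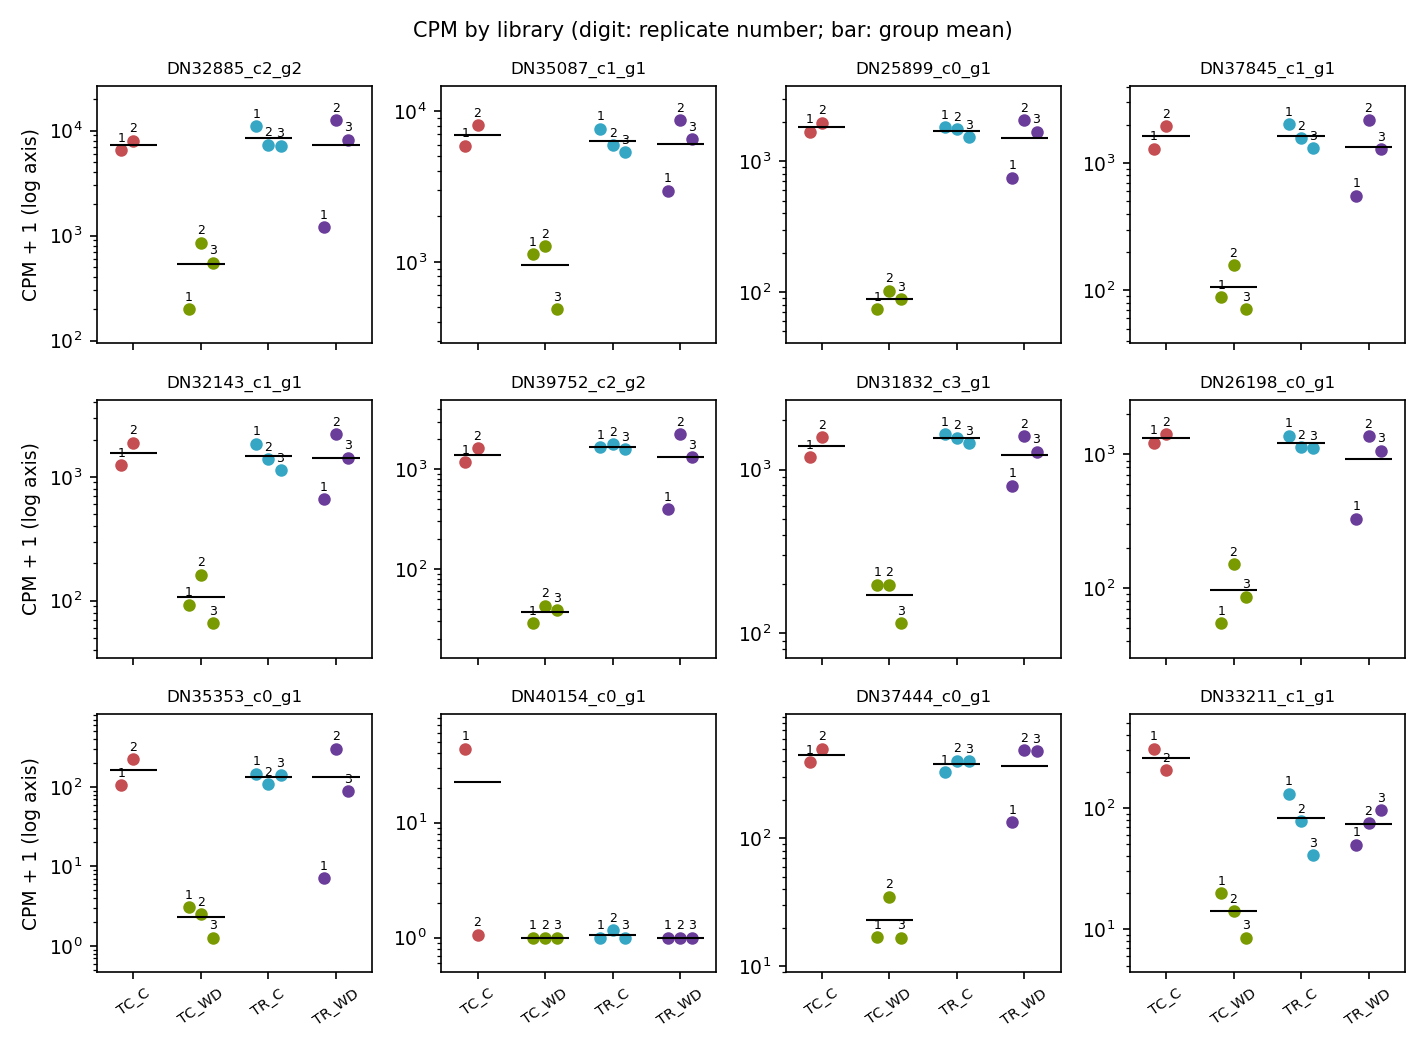
Each panel is 1 gene, the 8 members with the highest mean CPM in the *T. chinensis* control followed by 4 of those with the largest drop in *T. chinensis*; the vertical axis is CPM + 1 on a log axis, each point a library with its replicate number, and each bar a group mean (TC, *T. chinensis*; TR, *T. ramosissima*; C, control; WD, water deficit). In 10 of the 12 panels *T. ramosissima* water deficit plant 1 lies below all 3 controls of its species and plant 2 at or above their middle, the exceptions being TRINITY_DN40154_c0_g1 and TRINITY_DN33211_c1_g1.

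The pattern of *T. ramosissima* plant 1 ran through most of the members. Each water deficit plant was compared with the mean of the controls of its species on the log2(CPM + 1) scale. The median over the 308 members was -2.10, -1.98 and -2.14 in *T. chinensis* plants 1, 2 and 3, and -0.92, 0.10 and 0.02 in *T. ramosissima* plants 1, 2 and 3. In *T. ramosissima* plant 1 the quartiles were -1.53 and -0.44, and 237 members (76.9%) lay below every control library of the species, against 45 (14.6%) in plant 2 and 63 (20.5%) in plant 3. Among the 9356 other genes with a *T. ramosissima* log2 ratio within 0.4 and the same minimum level, the medians were 0.04, -0.04 and 0.03, and 28.1%, 27.0% and 22.5% lay below every control. A lower plant 1 was not particular to the members: the 1275 genes that met the *T. chinensis* limits but lay below -0.4 in *T. ramosissima* had medians of -1.80, -0.94 and -1.06 in plants 1, 2 and 3. No test was applied to this contrast, since the rule used the mean of these 3 plants. Scaling by TMM factors moved the median of plant 1 to -1.06, and the TPM values gave -0.94.

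Plant 1 had the lowest value of the 3 *T. ramosissima* water deficit plants for 247 members (80.2%), against 37.6% of the 17482 genes with the same minimum level. It was below every other *T. ramosissima* library, control or water deficit, for 226 members (73.4%), against 26.7% of those genes. Its log2 ratio was -1 or lower for 143 members (46.4%), against 14.8% of the 17482 genes. It was -1.5 or lower for 80 members (26.0%), against 7.95%. For 128 members it was -1 or lower while both other plants stayed above -0.4, a count taken for the members only. By contrast, 39 members had a ratio above 0 in this plant, where 8682 of the 17482 genes did. For the members together, the ratio in plant 1 was 43.9% of the log2 ratio in *T. chinensis* at the median, with quartiles of 22.98% and 69.0%. The level in plant 1 was still above the highest *T. chinensis* water deficit library for 237 members. For the remaining 71 that library was at or above plant 1, as it was for 11071 of the 17482 genes. Every *T. ramosissima* library was above every *T. chinensis* water deficit library for 221 members, a count taken for the members only. The rule's drop in *T. chinensis* and flat mean in *T. ramosissima* favour both separations.

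**Figure D3:**
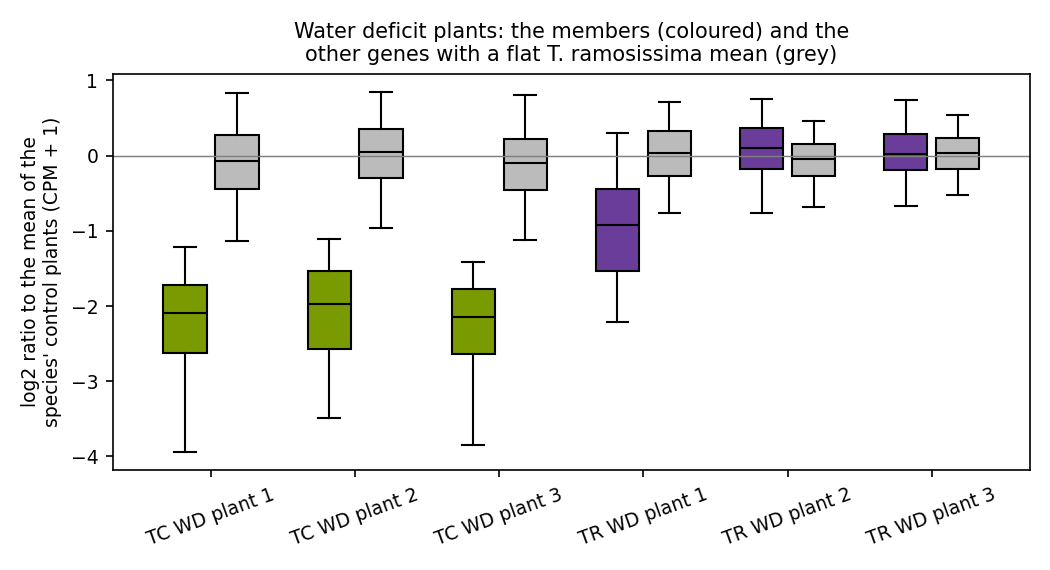
The vertical axis is the log2 ratio (CPM + 1) of each water deficit plant to the mean of its species' controls; boxes span the quartiles with the median as a line and whiskers the 5th to 95th percentiles, for the 308 members (coloured) and the 9356 other genes with a flat *T. ramosissima* mean (grey). The members' medians are near -2 in all 3 *T. chinensis* plants, -0.92 in *T. ramosissima* plant 1, and 0.10 and 0.02 in plants 2 and 3, while the grey medians stay near 0.

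*T. ramosissima* plants 2 and 3 alone gave a median log2 ratio of 0.08 over the members. Their mean was within 0.4 of the control for 252 members, above it for 46 and below it for 10. The flatness asked by the rule was thus met by a low plant 1 together with plants 2 and 3 near or above the controls. Only 25 members (8.12%) had every *T. ramosissima* water deficit plant within 0.4 of the control mean, against 40.8% of the other genes with a flat mean. For 27 members every water deficit plant lay inside the range of the 3 controls. The label of these genes as flat in *T. ramosissima* therefore held for the group mean and went against the values of plant 1 for most members. Without *T. ramosissima* water deficit plant 1 the rule chose 489 genes, 252 of them among the 308, and without plant 2 it chose 215, with 185 shared.

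At the median, the members varied more between plants than the 17482 genes did in every group. Levels were unlike in the *T. chinensis* water deficit group, with a median of 8.23 CPM over the members and 22.7 CPM over the 17482 genes. The part of level in the variation was not tested, and the *T. chinensis* control rests on 2 libraries. The median coefficient of variation of the members was 46.8% in the *T. ramosissima* water deficit group, against 18.8% in its control, 36.8% in the *T. chinensis* water deficit group and 13.5% in the *T. chinensis* control. Over the 17482 genes the medians were 23.7%, 17.1%, 19.8% and 9.68% in the same order. The largest range among the *T. ramosissima* water deficit plants was that of TRINITY_DN35353_c0_g1, at 5.41 log2 units. TRINITY_DN39516_c1_g1 followed with 14.6, 319 and 343 CPM in plants 1, 2 and 3, against 137, 205 and 270 CPM in the controls, and TRINITY_DN31379_c0_g1 with 3.45, 40.3 and 87.8 CPM against 27.1, 47.2 and 39.5 CPM. In both, plant 1 was the lowest of the 6 libraries and plant 3 the highest.

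A steeper drop in *T. chinensis* went with a lower value in *T. ramosissima* plant 1. The 32 members with a *T. chinensis* log2 ratio of -3 or lower had a median of -1.86 in plant 1, and 27 of them lay below every control. The 112 members between -3 and -2 had a median of -1.16, with 97 below every control, and the 164 members above -2 had a median of -0.70, with 113 below every control. In plants 2 and 3 the corresponding medians were 0.32 and -0.08, 0.13 and 0.04, and 0.00 and 0.03. By level, the 9 members with 1000 CPM or more in the *T. chinensis* control had a *T. chinensis* median of -3.77 and a *T. ramosissima* plant 1 median of -1.56, and all 9 lay below every control in that plant. The 70 members with 100 CPM or more had a median of -1.13 in plant 1, the 136 members from 20 to 100 CPM one of -1.01, and the 102 members under 20 CPM one of -0.68. The pseudocount of 1 understates the ratios of low genes.

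**Figure D4:**
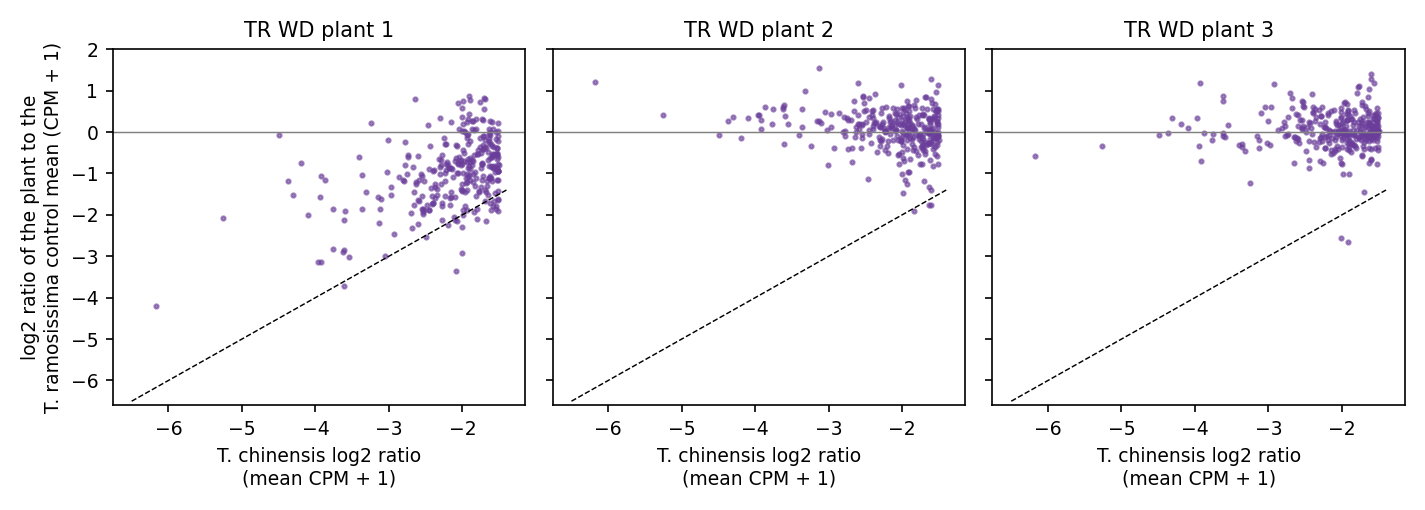
Each point is 1 of the 308 members, with its *T. chinensis* log2 ratio (mean CPM + 1) on the horizontal axis and its log2 ratio in a single *T. ramosissima* water deficit plant, against the mean of the controls, on the vertical axis; the dashed line marks equal ratios. The points of plant 1 lie mostly below 0 (median -0.92) and lower towards the left, and those of plants 2 and 3 lie around 0 (medians 0.10 and 0.02).

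A smaller number of members did stay level in every plant. Among members with 5 CPM or more in the *T. ramosissima* control, the smallest range over its 6 libraries was that of TRINITY_DN30878_c0_g1, with 50.5, 48.7 and 44.1 CPM in the controls and 41.0, 47.0 and 41.1 CPM under water deficit. In *T. chinensis* this gene went from 57.1 and 53.3 CPM to 12.3, 20.8 and 18.3 CPM, without overlap. TRINITY_DN30262_c1_g2 had 21.5, 19.2 and 18.6 CPM in the *T. ramosissima* controls and 15.9, 20.3 and 18.03 CPM under water deficit, and it went from 17.5 and 23.4 CPM to 2.83, 4.66 and 3.25 CPM in *T. chinensis*. TRINITY_DN26333_c2_g2, TRINITY_DN31491_c0_g1 and TRINITY_DN39277_c1_g1 were the other 3 with the smallest range, at 0.33, 0.35 and 0.45 log2 units over the 6 libraries, and their *T. chinensis* log2 ratios were -1.64, -1.64 and -1.72.

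In the edgeR quasi-likelihood test of *T. chinensis*, with Benjamini-Hochberg adjustment over 28210 genes, 14 of the 307 members tested were lower under water deficit at an adjusted p (FDR) no higher than 0.005 with a log2 fold change of -1 or lower, where 0.291% of all genes tested were called lower. At an FDR of at most 0.05 there were 272 members, where 9.48% of all genes were called lower. The rule used this contrast, so nothing is read from these counts. The count at 0.005 changed with a library left out: it was 96 without *T. chinensis* water deficit plant 2 and 0 without water deficit plant 1 or 3. Each such fit also had 1 plant fewer, and the cause of the change was not tested. Fits without a control keep 1 control library, so their counts are left out here. In *T. ramosissima* the same test called 0 of 304 members at 0.05 in either direction, with 0 members at an unadjusted p under 0.05 and that fold change, where 7.67% of all genes tested were lower and 5.95% higher. At an FDR of 0.005, DESeq2 and limma-voom also called 0 members. Over all 29025 genes tested in *T. ramosissima*, 2.29% were called lower and 1.54% higher at 0.05.

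Whether the species responded differently was examined with an interaction term fitted to all 11 libraries. The median interaction of the 307 members tested was -2.01 on the log2 scale, against 0.03 over all 31320 genes. With edgeR's quasi-likelihood test 0 members were called at an FDR of 0.005, while 264 were lower at an unadjusted p under 0.05 with a log2 difference of -1 or lower, where 5.53% of all genes tested were. DESeq2 called 76 members among 359 genes in all, and limma-voom called 0 members. At an FDR of 0.05, 1 member was called lower, where 0.0543% of all genes were. That gene was TRINITY_DN25899_c0_g1, with an interaction of -4.13 (SE 0.57) and an edgeR adjusted p of 0.0344. Next in order of p were TRINITY_DN38304_c0_g1, TRINITY_DN39752_c2_g2 and TRINITY_DN33173_c0_g1, with interactions of -3.13, -4.92 and -2.03. Without *T. ramosissima* water deficit plant 1, 24 members were called at 0.005. Both contrasts in the interaction were used to choose the members, so these values also are a description.

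The controls of both species held the members at similar levels. The median log2 difference between the species' control means, *T. chinensis* over *T. ramosissima* on CPM + 1, was 0.10 over the members and 0.05 over the 17482 genes. It was within 1 for 287 members (93.2%), against 97.2% of those genes, and the control libraries of the species overlapped for 223 members (72.4%), against 77.0%. Both *T. chinensis* controls were above all *T. ramosissima* controls for 73 members and below all of them for 12, where the rule's minimum level and drop favour a high *T. chinensis* control. The share of the 17482 genes in each direction was not taken, so these counts have no baseline. The edgeR test between the controls called 0 members at an FDR of 0.05, where 0.00354% of genes were called higher in *T. chinensis* and 0.00354% lower. At an unadjusted p under 0.05 and with a log2 fold change beyond 1 in size, 12 members were higher and 3 lower in *T. chinensis*, where 1.73% of all genes tested were higher and 3.06% lower. At an FDR of 0.005 DESeq2 called 4 members, edgeR's exact test 5 and limma-voom 0.

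For 16 members the *T. chinensis* control was higher by more than 1 log2 unit. In 4 of these the *T. ramosissima* control was under 1 CPM, so that the pseudocount alone kept the ratio near 0 and flatness was not measurable. Beside TRINITY_DN40154_c0_g1, they included TRINITY_DN28797_c0_g1, with 9.57 and 7.79 CPM in the *T. chinensis* controls, 0.683, 0.917 and 2.98 CPM under water deficit and at most 0.0848 CPM in any *T. ramosissima* library, and TRINITY_DN27944_c1_g3, with 10.7 and 7.15 CPM, then 3.22, 0.917 and 2.53 CPM, and at most 0.933 CPM in *T. ramosissima*. A further 12 members had 1 to 5 CPM in the *T. ramosissima* control, and 292 had 5 CPM or more. In 5 members the *T. chinensis* control was lower by more than 1 log2 unit. The lowest relative to *T. ramosissima* was TRINITY_DN38037_c0_g1, with 5.51 and 9.07 CPM in the *T. chinensis* controls and 0.976, 1.15 and 1.45 CPM under water deficit, against 19.8, 40.0 and 10.8 CPM and 19.2, 30.7 and 32.0 CPM in *T. ramosissima*. TRINITY_DN33102_c1_g1 and TRINITY_DN38533_c1_g2 followed at -1.33 and -1.12 log2 units.

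Trinity places related contig groups in 1 cluster, given by the first numbers of the identifier. Such groups can be gene copies, alleles or species versions of a gene, and RSEM shares fragments that fit several of them. The members fell into 299 clusters, of which 9 held 2 members each, and 124 members (40.3%) were alone in their cluster, against 34.1% of the 17482 genes. A count that was not whole, the mark of shared fragments, was present for 87 members (28.2%), against 24.7%. The ratio of CPM to TPM grows with transcript length. It was divided by its median in each library, over genes with a count of 20 or more, and averaged over the control libraries of both species. This relative length had quartiles of 0.582, 1.02 and 1.48 over the members and 0.672, 1.11 and 1.68 over those genes.

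The clusters of the members held 348 other genes, which the rule did not use as members, and 154 of them could be tested in *T. chinensis*. The median log2 fold change of these 154 genes was -1.05, against 0.02 over all genes tested. With edgeR's quasi-likelihood test, 49 (31.8%) were lower at an FDR of 0.05, where 9.48% of all genes were, and 4 were higher. At an FDR of 0.005 the call was 1 gene, TRINITY_DN37845_c1_g2, and this count was 6 without *T. chinensis* water deficit plant 2 and 0 without any other *T. chinensis* library. In *T. ramosissima* the median log2 fold change of the 165 cluster genes tested there was -0.15, against 0.02. Because fragments can be shared within a cluster, these genes cannot be taken as independent of the members. Of the cluster genes, 21 met the *T. chinensis* limits themselves. By construction none of these was within 0.4 in *T. ramosissima*, since it would then be a member.

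**Figure D5:**
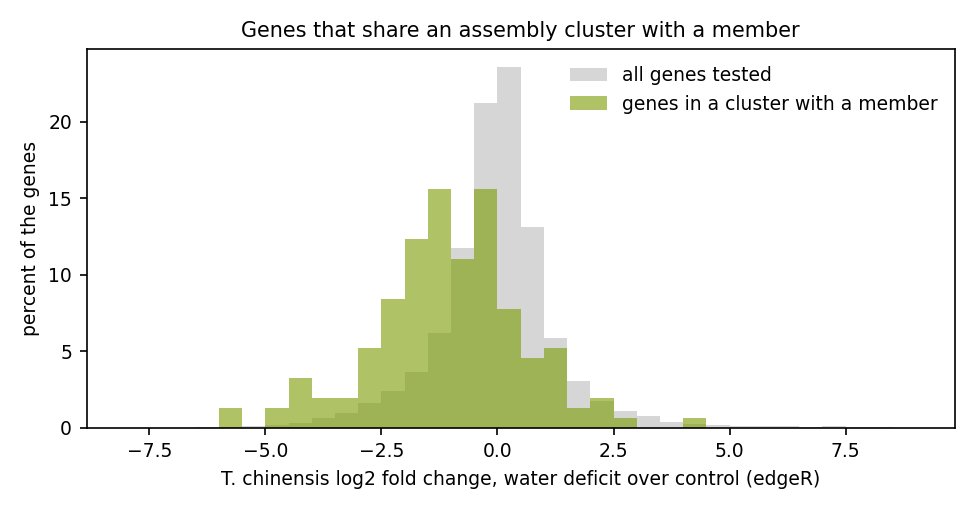
The horizontal axis is the *T. chinensis* log2 fold change of water deficit over control from edgeR and the vertical axis the percent of genes, for the 154 genes that share an assembly cluster with a member (green) and all 28210 genes tested (grey). The median of the green genes is -1.05 and that of the grey genes 0.02, and both histograms overlap over most of their width.

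TRINITY_DN32885_c2_g1, in the cluster of the most abundant member, had a mean of 2894 CPM in the *T. chinensis* control and 46.4 CPM under water deficit, and 3175 and 1568 CPM in *T. ramosissima*. Its *T. ramosissima* water deficit values were 143, 2858 and 1703 CPM, so plant 1 was again the lowest. TRINITY_DN37845_c1_g2 went from a mean of 725 to 32.4 CPM in *T. chinensis*, and from 793 to 422 CPM in *T. ramosissima*. Other clusters were split in direction. TRINITY_DN33879_c0_g6, a member, had 15.99 and 26.1 CPM in the *T. chinensis* controls and 6.64, 3.52 and 4.16 CPM under water deficit, while its cluster partner TRINITY_DN33879_c0_g3 went from 4.15 and 2.43 CPM to 58.1, 18.6 and 107 CPM, a log2 fold change of 4.29 (SE 0.87, edgeR adjusted p 0.0267). A further partner, TRINITY_DN33879_c0_g1, had a log2 fold change of 2.66 (SE 0.85) at an edgeR adjusted p of 0.0795. Beside members TRINITY_DN30025_c2_g1 and TRINITY_DN36185_c0_g1, the partners TRINITY_DN30025_c2_g2 and TRINITY_DN36185_c0_g2 had log2 fold changes of 2.25 and 2.24, with edgeR adjusted p of 0.0771 and 0.119, at mean levels of at most 3.10 CPM.

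Complete separation of the groups in *T. ramosissima* was uncommon among the members. All 3 water deficit plants lay below all 3 controls for 7 members (2.27%) and above them for 2 (0.649%), where 18.3% and 14.8% of the 17482 genes were separated in those directions, and the limit on the *T. ramosissima* ratio keeps such genes few. Among the 7 were TRINITY_DN23314_c0_g1, with 12.9, 15.1 and 13.2 CPM in the controls and 10.98, 9.89 and 10.3 CPM under water deficit, and TRINITY_DN25293_c0_g2, with 20.9, 26.5 and 24.9 CPM against 20.8, 13.7 and 20.8 CPM. They are named as the first and the last in order of the drop in *T. chinensis*, a choice made after their values were seen.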

How the data were processed

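Leaf RNA of 11 plants was sequenced as read pairs, and groups were taken from the sample labels. The authors trimmed reads with Prinseq, assembled both species into 1 Trinity reference, and ran Bowtie and RSEM on each library. The expected counts they deposited are unnormalized estimates of fragments per gene, and 3.11% to 4.00% of them per library are not whole. TPM was deposited as the authors' own RSEM output. All columns were assigned to a library, and the read strand, the RSEM version and the genome coordinates of the contigs are not given in the sources used here.

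CPM by column sum chose the members, as deposited and unrounded. For tests, counts were rounded and fitted in R 4.3.3 with edgeR 4.0.16 (quasi-likelihood, TMM, Benjamini-Hochberg over all genes with CPM above 1 in at least 2 libraries compared). The thresholds were an FDR of 0.005, with 0.05 as a second value, and an absolute log2 fold change of 1. Only the groups compared entered a fit, except for the interaction. SEs were derived from the fold change and its F statistic. p-values measure the spread between single plants. Code was tested on simulated counts.

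The members, lists and tests were chosen with earlier results of these data known. Named genes were the 8 members with the lowest *T. chinensis* ratio, the 8 with the highest control CPM, the 5 with the smallest range in *T. ramosissima*, the 3 with the largest range among its water deficit plants, the 4 with the smallest interaction p, members with the highest cluster partners, the 3 at each end of the control difference, and genes at the limits. Alternatives were DESeq2 1.42.0, limma-voom (limma 3.58.1), edgeR's exact test, median-ratio factors, TPM, a pseudocount of 0.25, other minimum levels, no filter on low counts, counts summed per cluster, the replicate number as a block, and each library left out. Values of *T. ramosissima* plant 1, cluster genes without a library and the 0.05 count without a library were added after seeing the data.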

Additional observations from a re-analysis of the deposited data

Results flagged for a closer look

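For 2 members every *T. chinensis* water deficit plant lay below its controls while every *T. ramosissima* water deficit plant lay above its own. TRINITY_DN35372_c0_g1 had 12.8 and 6.52 CPM in the *T. chinensis* controls and 3.90, 0 and 1.54 CPM under water deficit, against 7.64, 9.24 and 10.5 CPM and then 11.7, 11.3 and 13.7 CPM in *T. ramosissima*. Its edgeR interaction was -2.75 (SE 1.19) on the log2 scale at an adjusted p of 0.406. TRINITY_DN31491_c0_g1 had 13.0 and 10.9 CPM and then 4.88, 2.06 and 2.53 CPM in *T. chinensis*, against 11.8, 11.7 and 12.6 CPM and then 12.7, 15.2 and 13.8 CPM in *T. ramosissima*. Its edgeR interaction was -2.03 (SE 0.47) at an adjusted p of 0.124. Neither interaction passed the threshold, and the direction in *T. chinensis* was set by the choice of the members.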

How the results depend on the processing

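The number of members, 308, was 302 with TMM factors (285 shared), 273 with median-ratio factors (266), 364 with TPM (242), 345 with a pseudocount of 0.25 (298), 355 and 254 with control minimums of 1 and 10 CPM, and 248 with counts summed per cluster (235). It ranged from 215 to 489 with 1 library left out, highest without *T. ramosissima* water deficit plant 1. The 14 members called in *T. chinensis* became 272 at an FDR of 0.05, 276 with DESeq2, 26 with limma-voom, 291 with edgeR's exact test and 308 with no filter on low counts, and ranged from 0 to 96 with 1 library left out. At an FDR of 0.05 the range was 0 to 288. The 0 interaction calls became 1 at an FDR of 0.05, 76 with DESeq2 and 171 with no filter, and ranged from 0 to 24. Between the controls, 0 became 4 with DESeq2, 14 with no filter and 5 with the exact test. The 1 cluster gene called became 31 with DESeq2 and 49 at an FDR of 0.05, and ranged from 0 to 6. The count of 0 in *T. ramosissima* held in every alternative run, an outcome that the rule's limit on that ratio largely fixed in advance. Same-numbered plants did not deviate together (correlations of -0.209 to 0.0981), so they share only a number; with the replicate block 0 members were called in *T. chinensis* at 0.005 and 194 at 0.05. The median in *T. ramosissima* plant 1 stayed between -1.06 and -0.86, and 237 to 249 members lay below its controls. Of the ratios of 35 named members, 26 of 280 *T. chinensis* and 26 of 315 *T. ramosissima* values moved by more than their spread. None of those in *T. chinensis* changed sign, an outcome that the rule's separation of the libraries largely fixed in advance. The causes were not tested. The counts of calls in this paragraph stand without the share of all genes called in the same run. They show only how far the counts moved with the processing. With 1 library left in the *T. chinensis* control, its variation was taken to equal that of the water deficit group. Genes near 5 CPM rest on about 51.2 fragments in the smallest library.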

Other observations

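The 9 clusters with a pair of members held pairs with like and with unlike *T. chinensis* log2 ratios. TRINITY_DN39130_c0_g1 and TRINITY_DN39130_c0_g2, at 8.75 and 24.0 CPM in the *T. chinensis* control, both had a ratio of -1.54, while TRINITY_DN38430_c0_g2 and TRINITY_DN38430_c0_g4, at 393 and 68.9 CPM, had ratios of -2.75 and -1.90. These pairs were named after their values were seen. Fragments can be shared within a cluster, so the values of a pair cannot be taken as independent of each other.

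The ratio of CPM to TPM, divided by its median in each library, follows the mean length of the transcripts counted. Between the control and the water deficit libraries of *T. chinensis* it shifted by 0.5 log2 units or more for 10 of 226 members (4.42%). The share was 1.46% of 16503 genes with the same minimum level. The median absolute shift was 0.04 over the members and 0.03 over those genes. The remaining members had a count under 20 in at least 1 *T. chinensis* library and were left out.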
